A study of Homo sapiens with 8 samples.

Results

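Tubulins are the building blocks of microtubules, and 36 genes for tubulins and the proteins that fold, assemble or sequester them are described here. They were chosen by name, with earlier results of these data known, and make up 36 of the 18014 genes with array features of 1 gene symbol. The genes are 6 alpha tubulins, 7 beta tubulins, 3 tubulins of centrosomes and centrioles (gamma, delta and epsilon), 5 tubulin cofactors, the 8 subunits of the CCT chaperonin, the 6 subunits of prefoldin, and STMN1, the gene for stathmin. All 36 had values, from 62 array features, and 19 of them had more than 1 feature. The study named 8 of these tubulins (TUBA1B, TUBA1C, TUBA3D, TUBA4A, TUBB, TUBB3, TUBB6 and TUBB4B) from the same samples, so the direction of those 8 is not independent evidence.

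The samples were Caco-2 cells, a human colorectal adenocarcinoma line that forms an enterocyte-like monolayer, grown for 18 days to differentiate. Lactobacillus plantarum MB452 is a bacterial strain from a probiotic mixture. The MB452 group (6 wells) was kept in medium, M199 with non-essential amino acids, that carried the bacteria at an optical density of 0.9 at 600 nm, and the control group (6 wells) had medium without them, each for 10 hours. RNA from 3 wells at a time was combined, which gave 2 control pools and 2 MB452 pools, each called A and B. Every pool carried the dye Cy5 and was hybridised on 1 slide together with a Cy3-labelled reference made of RNA from all wells, and each slide was scanned at a high and a low photomultiplier voltage.

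Alpha and beta tubulin form the heterodimers that polymerise into microtubules, which in polarised epithelial cells run mostly along the apical to basal axis. A newly made tubulin chain is captured by prefoldin, handed to the ring-shaped CCT chaperonin for folding, and joined into a dimer by the cofactors TBCA to TBCE. Cells hold the dimer pool in check, since free dimers bring about the decay of tubulin messenger RNA during translation through the protein TTC5. Stathmin binds free dimers and favours microtubule disassembly.

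A log2 ratio here is the value of a pool against the common reference, and a log2 fold change is the mean of the MB452 pools minus that of the control pools. There was no dye swap, so the ratios of different genes were not set against each other. A gene was called past the threshold when its fold change was over 1.2 and its unadjusted moderated p under 0.05 in limma, which is the threshold of the study. Over 17910 genes, 183 (1.02%) were lower and 195 (1.09%) were higher past this threshold, 2.11% in all, and the median log2 fold change was -0.0086. After Benjamini-Hochberg adjustment in limma 0 genes were under 0.05 (the lowest adjusted p was 0.164), and 1232 genes had an unadjusted p under 0.05. With 2 pools against 2 an exact two-sided permutation test of a single gene cannot go below 0.333. The control pools correlated with each other at r = 0.403 over features, and the MB452 pools at 0.667. Control pool A correlated at 0.585 and 0.488 with MB452 pools A and B, and control pool B at 0.453 and 0.377, so control pool A was closer to either MB452 pool than to the other control pool. Of 12 epithelial marker genes, 7 (among them EPCAM, CDH1, KRT8 and VIL1) had a feature saturated in a high scan, against 3.74% of all genes and 0 of 9 stromal and immune markers. Of the 9 epithelial markers tested, 6 had negative and 3 positive log2 fold changes, with a median of -0.043. FABP1, an enterocyte fatty acid binding protein, was lower past the threshold at -0.39 (standard error 0.135). Its log2 ratios were 0.26 and 0.16 in the control pools and -0.38 and 0.0095 in MB452 pools A and B. These are from the low scan alone, since its 1 feature was saturated in all high scans. The part of FABP1 in the tubulin values was not tested.

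With MB452, 8 of the 36 genes were lower past the threshold (against 1.02% of all genes) and none of the 36 was higher, where 1.09% of all genes were. The 8 were TUBA1A, TUBA1B, TUBA1C, TUBB4B, TUBB6, CCT5, PFDN6 and STMN1, with log2 fold changes from -0.30 to -0.54, or 1.23-fold to 1.45-fold lower. Their adjusted p from limma lay between 0.598 and 0.713. Of the 8 tubulins the study named as lower, TUBA3D, TUBA4A, TUBB and TUBB3 did not pass here. The study tested each spot, and used high scan values except near saturation, where rescaled low scan values were taken. A gene's value here is the mean over its features, and the scans of features without saturation were averaged. Single features of TUBA3D, TUBA4A and TUBB3 did pass, but no feature of TUBB did. Of the 36 genes, 29 had a negative log2 fold change, where 9717 of all 17910 genes did, and the median of the 36 was -0.13. Both MB452 pools lay below both control pools in 18 of the 36, against 19.5% of all genes, and above both in 3, against 17.9% of all genes. In these bulk samples fewer cells with a transcript and less of it per cell cannot be told apart.

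**Figure D1:**
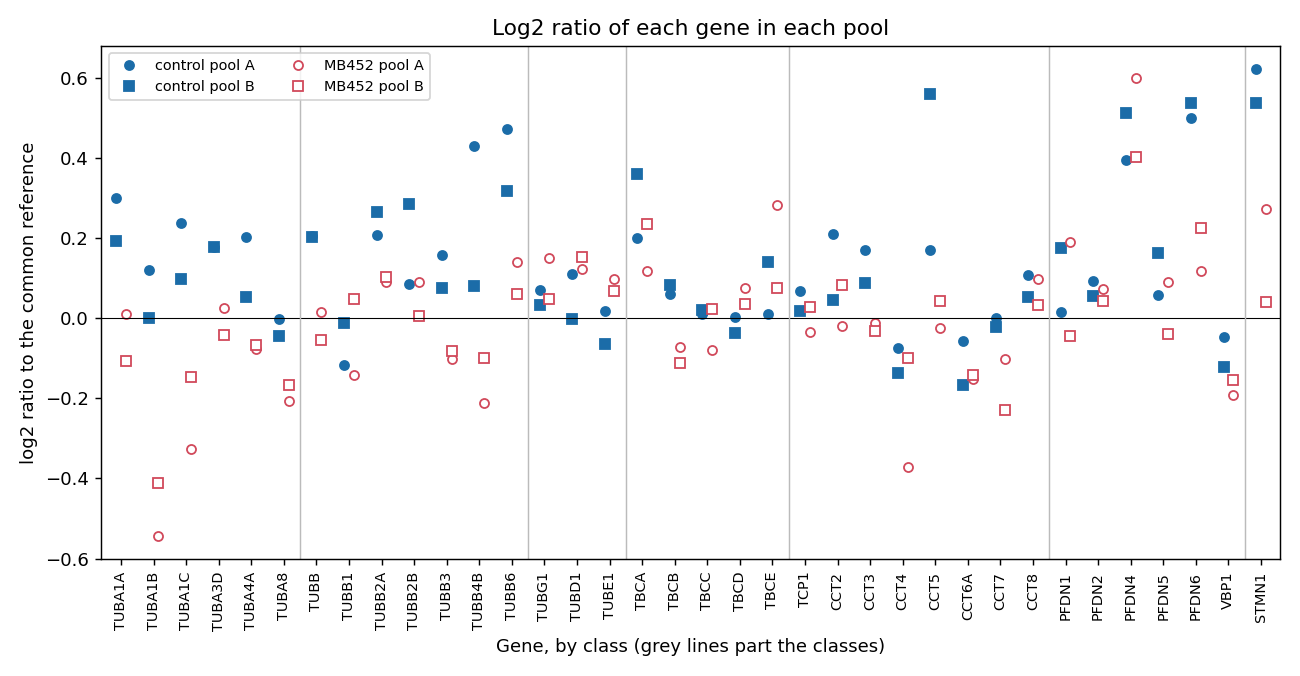
The vertical axis is the log2 ratio of each pool to the common reference and the horizontal axis lists the 36 genes by class; filled blue marks are the 2 control pools and open red marks the 2 MB452 pools, circles for pool A and squares for pool B. All 6 alpha tubulins had both MB452 pools below both control pools, and TUBA1B had -0.54 and -0.41 in its MB452 pools against 0.12 and 0.0014 in its control pools.

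Promoter sequences are shown for 4 of the genes that were lower, because they differ in the motifs they hold. The sequences are from RefSeq (GRCh38.p14) and run from 250 bases before to 50 bases after the annotated start of the gene, in the direction of transcription, with the letters CCAAT, or ATTGG for the same motif on the other strand, in capitals. TUBA1A and TUBA1B are near neighbours on chromosome 12 and lie on the same strand, TUBA1A at chr12:49189031-49189330 (minus strand) and TUBA1B at chr12:49131346-49131645 (minus strand). TUBB4B is at chr9:137241037-137241336 (plus strand) and STMN1 at chr1:25906370-25906669 (minus strand).
TUBA1A: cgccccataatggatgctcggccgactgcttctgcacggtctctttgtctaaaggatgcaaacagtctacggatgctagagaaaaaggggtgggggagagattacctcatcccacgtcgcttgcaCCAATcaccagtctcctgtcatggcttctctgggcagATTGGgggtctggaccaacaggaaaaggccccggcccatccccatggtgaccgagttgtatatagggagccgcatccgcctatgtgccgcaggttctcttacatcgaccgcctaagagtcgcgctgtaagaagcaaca
TUBA1B: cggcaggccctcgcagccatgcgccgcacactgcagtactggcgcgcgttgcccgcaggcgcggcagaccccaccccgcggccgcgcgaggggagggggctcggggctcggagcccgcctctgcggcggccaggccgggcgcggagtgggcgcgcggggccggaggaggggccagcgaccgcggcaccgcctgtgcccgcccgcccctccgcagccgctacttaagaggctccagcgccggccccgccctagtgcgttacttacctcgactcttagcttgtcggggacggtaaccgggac
TUBB4B: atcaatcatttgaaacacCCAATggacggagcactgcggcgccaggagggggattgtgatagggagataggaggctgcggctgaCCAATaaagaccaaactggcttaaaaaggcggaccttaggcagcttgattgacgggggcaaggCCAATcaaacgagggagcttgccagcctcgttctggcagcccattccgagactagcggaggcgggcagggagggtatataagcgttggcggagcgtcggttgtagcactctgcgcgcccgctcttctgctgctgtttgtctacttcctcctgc
STMN1: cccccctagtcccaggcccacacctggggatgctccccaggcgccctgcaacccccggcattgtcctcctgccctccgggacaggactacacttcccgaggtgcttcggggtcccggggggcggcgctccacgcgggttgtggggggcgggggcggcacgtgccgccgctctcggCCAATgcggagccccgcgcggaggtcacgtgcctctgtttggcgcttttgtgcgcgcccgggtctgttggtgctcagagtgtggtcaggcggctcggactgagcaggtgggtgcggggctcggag

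The TUBA1A window held 2 CCAAT matches, which begin 125 and 88 bases before the start, and the TUBB4B window held 3, at 232, 166 and 103 bases. The STMN1 window held 1 CCAAT match, 75 bases before the start. The TUBA1B window held none, and 3 matches to the GC box GGGCGG on either strand, in a sequence of 77.0% G and C. Of the 36 genes, 34 were matched to a RefSeq promoter, and PFDN2 and CCT6A were not. CCAAT stood on either strand in 16 of the 34, among them 6 of 13 alpha and beta tubulins, against 35.7% of 27305 promoters of the same length. Of the 8 genes that were lower, 4 held it, TUBA1A, TUBA1C, TUBB4B and STMN1. GGGCGG stood in 20 of the 34, against 44.6%, and the E2F motif (TTTCGCGC or TTTGGCGC, either strand) in 3 of the 34, TUBG1, TCP1 and STMN1, against 1.18%. The letters of the cell cycle homology region (TTTGAA or TTCGAA, either strand) stood in TUBA1C and TUBB4B, against 16.6% of promoters. No match overlapped one of another motif in these 34 windows, and the matches describe letters, not tested sites.

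All 6 alpha tubulins had negative log2 fold changes with MB452, with a median of -0.25, and in all 6 both MB452 pools lay below both control pools (19.5% of all genes). TUBA1A, TUBA1B and TUBA1C were lower past the threshold, and the other 3 had values from -0.16 to -0.20. TUBA1B, a broadly expressed alpha tubulin, had log2 ratios of 0.12 and 0.0014 in control pools A and B, and -0.54 and -0.41 in MB452 pools A and B. Its log2 fold change was -0.54 (standard error 0.077, adjusted p = 0.598 from limma), the 23rd lowest of the 17910 genes. This value is from the low scan alone, since its feature was saturated in all 4 high scans.

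TUBA1C, a close relative of TUBA1B, had log2 ratios of 0.24 and 0.097 in the control pools and -0.33 and -0.15 in the MB452 pools. The groups did not overlap, and the log2 fold change was -0.40 (standard error 0.089, adjusted p = 0.598 from limma). Its 4 features gave -0.37, -0.40, -0.42 and -0.43. Of these, 3 were past the threshold, and the other, saturated in all high scans, differed between the MB452 pools, with -0.63 in pool A and -0.012 in pool B. TUBA1A, best known from developing neurons, had 0.30 and 0.19 in the control pools and 0.010 and -0.11 in the MB452 pools. With non-overlapping groups, its log2 fold change was -0.30 with a standard error of 0.073 (adjusted p = 0.605 from limma). TUBA1A fell below the fold minimum in the fit that leaves out control pool A (-0.24) and in the fit that leaves out MB452 pool B (-0.24). Over the 4 fits that leave out a pool, TUBA1B ran from -0.47 to -0.60 and TUBA1C from -0.31 to -0.49. In such a fit the lone pool of a group is assumed to vary like the other group, so only fold changes are given.

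TUBA4A, whose messenger RNA encodes an alpha tubulin without the usual terminal tyrosine, had -0.20 (standard error 0.071) and did not pass. Its 4 features ran from -0.059 to -0.32, 2 of them past the threshold, and without control pool B the gene had -0.28. TUBA3D, known from testis, had -0.19 (standard error 0.058), and its features differed, since the first had -0.057 and the second, past the threshold, had -0.31. TUBA8, a divergent alpha tubulin, had -0.16 (standard error 0.057). Several tubulin genes are near-identical in their coding parts, and how far their probes share signal was not tested.

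Of the 7 beta tubulins 6 had negative log2 fold changes, with a median of -0.21, and TUBB4B and TUBB6 were lower past the threshold. TUBB4B, a broadly expressed beta tubulin that is also found in cilia, had log2 ratios of 0.43 and 0.079 in control pools A and B and of -0.21 and -0.10 in MB452 pools A and B. The MB452 pools were lower, but the control pools differed from each other by more than the MB452 pools did. The log2 fold change was -0.41 (standard error 0.125, adjusted p = 0.654 from limma). Its feature without saturation gave -0.43, past the threshold, and the feature saturated in all high scans gave -0.39. When pools were left out in turn, TUBB4B had -0.59 without control pool B, -0.35 without MB452 pool A and -0.47 without MB452 pool B. Without control pool A it had -0.23, below the fold minimum.

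TUBB6, another widely expressed beta tubulin, had 0.47 and 0.32 in the control pools and 0.14 and 0.059 in the MB452 pools. Every control value was above every MB452 value, and the log2 fold change of TUBB6 was -0.30 with a standard error of 0.076 (adjusted p = 0.624 from limma). Both of its features were past the threshold, at -0.32 and -0.27. The gene fell below the fold minimum when control pool A (-0.22) or MB452 pool B (-0.25) was left out. It did not pass in the high scan alone (-0.22) or with the scans kept apart and a random block for the slide (-0.30).

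TUBB, the main beta tubulin of many dividing cells, had 0.21 and 0.20 in the control pools and 0.015 and -0.055 in the MB452 pools. These groups were far apart for their spread, but the log2 fold change of -0.22 (standard error 0.058) was below the fold minimum, and its 3 features gave -0.20, -0.21 and -0.26. TUBB3, a neuronal beta tubulin that tumour cells also express, had -0.21 (standard error 0.060), with 1 of its 2 features past the threshold at -0.27. TUBB2A and TUBB2B, neighbours on chromosome 6 and abundant in brain, each had -0.14. Of the 2 features of TUBB2B, 1 had 0.47 in control pool B and between -0.0047 and 0.16 in the other pools. TUBB1, the beta tubulin of platelets, had 0.017 (standard error 0.086), the positive value among the alpha and beta tubulins.

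Taken by feature, 27 of the 28 alpha and beta tubulin features were negative, and 12 of the 28 were lower past the threshold, where 0.935% of all 41731 features were. None of the 28 was higher, where 1.38% of all features were. Of the features past the threshold, all but that of TUBA1A belong to tubulins the study had named from these samples. Their direction is therefore not independent evidence, and features of the same gene are not independent of each other. Both MB452 pools lay below both control pools in 23 of the 28, against 17.6% of all features. This held for 19 of the 23 features never saturated in a high scan. It held for 4 of the 5 read from the low scan alone for saturation, against 36.4% of all 1152 features read that way. The 23 features never saturated had a median log2 fold change of -0.20 in each scan. The scans are readings of the same slides, so the second scan adds no separate support.

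**Figure D2:**
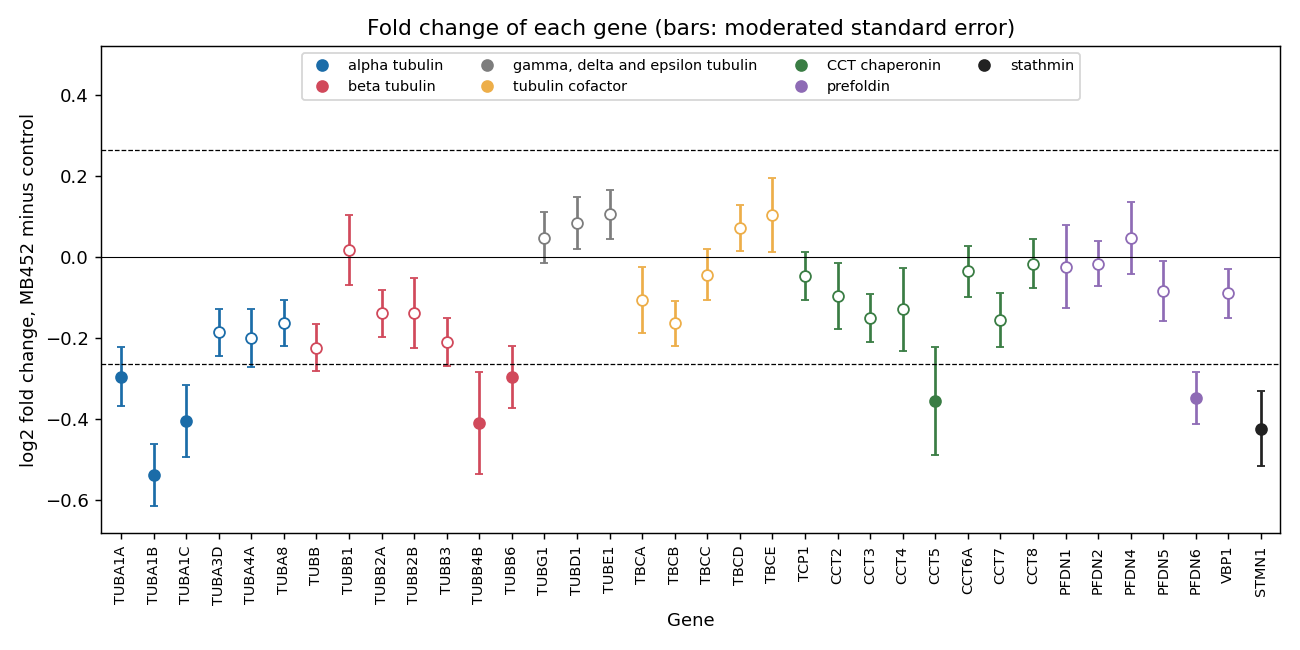
The vertical axis is the log2 fold change, MB452 minus control, with bars of 1 moderated standard error from limma, and the horizontal axis lists the 36 genes coloured by class. Filled points are the 8 genes past the threshold, open points the other 28, and the dashed lines mark a fold of 1.2; the alpha and beta tubulins lie below 0 except TUBB1, and the gamma, delta and epsilon tubulins above it.

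The genes TUBG1, TUBD1 and TUBE1 for gamma, delta and epsilon tubulin did not share this direction. All 3 had positive log2 fold changes and none passed the threshold. TUBG1, which nucleates microtubules, had log2 ratios of 0.070 and 0.032 in the control pools and 0.15 and 0.049 in the MB452 pools, and a log2 fold change of 0.048 (standard error 0.063). The groups overlapped. TUBD1 and TUBE1, which act at centrioles, had 0.084 (standard error 0.065) and 0.11 (standard error 0.061). Their MB452 pools did not overlap the lower control pools, as in 17.9% of all genes. The difference of TUBG1, TUBD1 and TUBE1 from the alpha and beta tubulins was not tested.

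STMN1 encodes stathmin, which holds free tubulin dimers and is abundant in dividing cells. Its log2 ratios were 0.62 and 0.54 in control pools A and B, and 0.27 and 0.041 in MB452 pools A and B. The control pools were alike and above both MB452 pools, which differed from each other, and the log2 fold change was -0.42 with a standard error of 0.093 (adjusted p = 0.598 from limma). The high scan gave -0.36 and the low scan -0.48. In the 4 fits that leave out a pool, STMN1 ran from -0.31 to -0.54. With the scans kept apart and a random block for the slide in limma, STMN1 did not pass. The other 3 stathmin genes did not pass, with values from -0.022 to -0.16.

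Values of markers of dividing cells are given beside those of STMN1 and the tubulins. All 23 measured markers had negative log2 fold changes, with a median of -0.17, and 5 of the 23 (PCNA, BIRC5, TYMS, CCNB1 and RRM2) were lower past the threshold, against 1.02% of all genes. Both MB452 pools lay below both control pools in 16 of the 23, against 19.5% of all genes. Over the 23 the median log2 ratio was 0.11 and 0.13 in the control pools and 0.0031 and -0.053 in the MB452 pools. PCNA, the sliding clamp of DNA replication, had 0.79 and 0.32 in the control pools and 0.011 and -0.022 in the MB452 pools, and its log2 fold change was -0.56 with a standard error of 0.155. MKI67, the gene for the proliferation antigen Ki-67, had -0.060 (standard error 0.057). The part of these markers in the tubulin and stathmin values was not tested.

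The CCT chaperonin, which folds actin as well as tubulin, had negative log2 fold changes in all 8 subunits. Their median was -0.11, where that of the alpha and beta tubulins was -0.21, and the difference between the classes was not tested. CCT5 was the subunit past the threshold (1 of 8, against 1.02% of all genes), at -0.36 (standard error 0.134, adjusted p = 0.713 from limma). Its log2 ratios were 0.17 and 0.56 in the control pools and -0.025 and 0.044 in the MB452 pools. This call rested on control pool B, since without it CCT5 had -0.16, below the fold minimum. In 1 of its 2 features control pool B had 0.90, where the other 3 pools lay between -0.18 and -0.022. The other feature gave -0.19, and neither feature passed on its own. Without MB452 pool A the gene had -0.32, and without MB452 pool B -0.39. CCT5 did not pass with the random block for the slide (-0.43), in the high scan alone (-0.47) or over both scans with saturated values (-0.31). Nor did it pass in the high scan with the low scan for saturated features (-0.33), or with its most variable feature (-0.52). It also did not pass with saturated features centred on their own median.

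Of the other subunits CCT7 and CCT3 had the lowest values, -0.15 (standard error 0.067) and -0.15 (standard error 0.060), each with both MB452 pools below both control pools. With CCT5 this held for 3 of the 8 subunits, against 19.5% of all genes. CCT7 was read from the low scan alone for saturation, and it held for 36.4% of the 1152 features read that way. CCT4 had -0.075 and -0.14 in the control pools and -0.37 and -0.099 in the MB452 pools. Its groups overlapped, and its log2 fold change of -0.13 was 0.0074 without MB452 pool A and -0.27 without MB452 pool B. CCT2 had -0.096, TCP1, the first subunit named, -0.047, CCT6A -0.036 and CCT8 -0.016, and none of these passed. Of the 13 CCT features, 8 were saturated in a high scan.

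Prefoldin, the complex that hands new chains to CCT, had 1 of 6 subunits past the threshold, PFDN6, where 1.02% of all genes were lower, and a median log2 fold change of -0.054. PFDN6 had log2 ratios of 0.50 and 0.54 in the control pools and 0.12 and 0.23 in the MB452 pools. The pools of each group were close together and the groups far apart, and the log2 fold change was -0.35 (standard error 0.064, adjusted p = 0.598 from limma). The high scan gave -0.36 and the low scan -0.34. PFDN6 ran from -0.29 to -0.40 in the 4 fits that leave out a pool, and rests on 1 feature. VBP1 had -0.090, PFDN5 -0.084, PFDN1 -0.024, PFDN2 -0.016 and PFDN4 0.047, and none of these passed. The MB452 pools of PFDN4 (0.60 and 0.40) overlapped its control pools (0.39 and 0.51).

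None of the 5 tubulin cofactors passed the threshold, with log2 fold changes from -0.16 to 0.10 and a median of -0.044. TBCB, which binds alpha tubulin, had 0.060 and 0.082 in the control pools and -0.073 and -0.11 in the MB452 pools. These groups did not overlap, with the MB452 pools lower, as in 19.5% of all genes. The log2 fold change of TBCB, -0.16 (standard error 0.056), was below the fold minimum. TBCA, which binds beta tubulin, had -0.11 (standard error 0.082), from the low scan alone. TBCC, which releases the finished dimer, had -0.044, and its 2 features differed in sign, with 0.052 and -0.14. TBCD, the other beta tubulin cofactor, had 0.072 (standard error 0.057) and TBCE, which acts with TBCB on alpha tubulin, 0.10 (standard error 0.092). The scans of TBCE disagreed in sign, with 0.24 in the high and -0.035 in the low scan.

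Of the features of the 36 genes, the brightest had a usable value in the low scan alone. Each high scan has 1 value that many features of the slide share, and spots with this value were regarded as saturated for both dyes. Of the 62 features of the 36 genes, 15 had it in at least 1 high scan, 8 of them in all 4, and none in a low scan. The 5 such features of the alpha and beta tubulins had a median log2 fold change of -0.39 in the low scan, against -0.0075 in the high scan, which is that of the shared value itself. Over all 1152 features with the shared value in a high scan and not in a low scan, the low scan medians were 0.059 and 0.021 in the control pools and -0.034 and 6.5e-04 in the MB452 pools, and 5.03% were lower past the threshold. Of the 15 features here, 3 were (TUBA1B and 1 each of TUBA1C and TUBA4A). Both MB452 pools lay below both control pools in 7 of the 15, against 36.4% of the 1152. TUBA1B was the 8th lowest of the 1152. With these features centred on their own median on each slide, a setting chosen after seeing the data, TUBA1B had -0.48 and the median of CCT was -0.055.

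**Figure D3:**
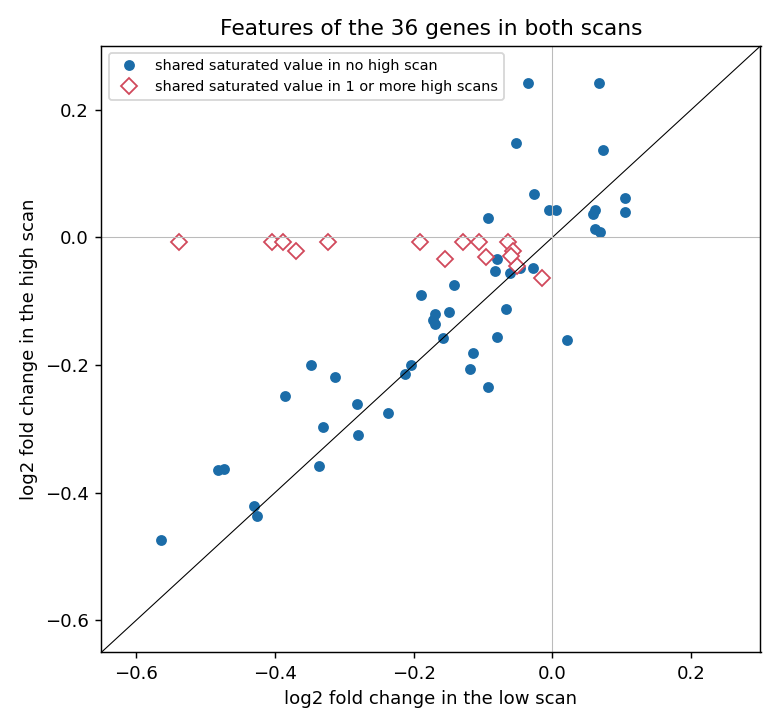
Each point is 1 of the 62 features of the 36 genes, with its log2 fold change in the low scan on the horizontal axis and in the high scan on the vertical axis; the diagonal is equality. The 47 features never saturated (blue) lie around the diagonal, and the 15 with the shared value in a high scan (open red) lie near 0 in the high scan and between -0.0145 and -0.54 in the low scan.

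Of 4 other tubulins measured, 7 genes of the gamma-tubulin ring complex, 22 tubulin-modifying enzymes, 30 microtubule-associated proteins, 7 helpers of CCT or of tubulin autoregulation, 3 partners of the cofactors, 8 genes of the prefoldin-like complex and 12 of the cytosolic HSP70 and HSP90 system, none passed the threshold in either direction, where 2.11% of all genes did, a share that would come to few genes in lists of these sizes. The microtubule-associated proteins and the modifying enzymes had medians of -0.0026 and -0.0049, close to the -0.0086 of all genes, and the other tubulins and the CCT helpers had medians of -0.15 and -0.12. TTC5, the sensor that starts the decay of tubulin messenger RNA, had log2 ratios of 0.043 and 0.14 in the control pools and -0.049 and -0.047 in the MB452 pools. Its log2 fold change was -0.14 (standard error 0.062).

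**Figure D4:**
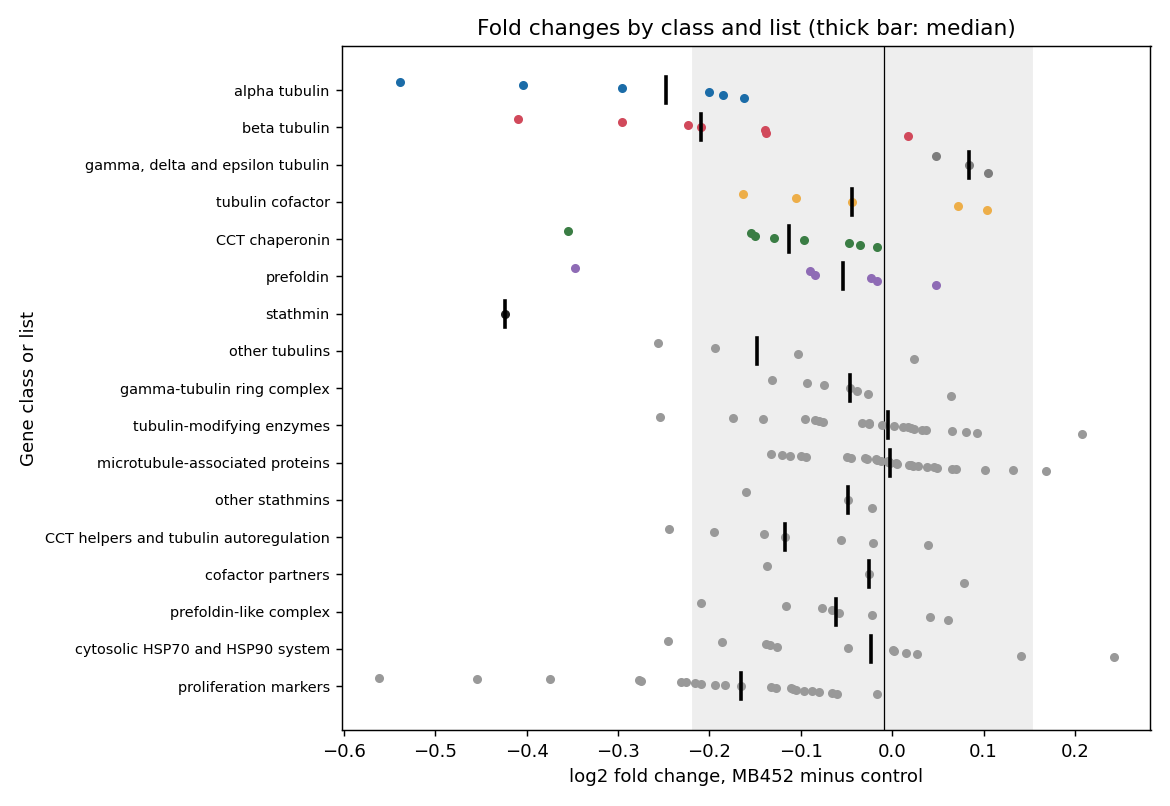
The horizontal axis is the log2 fold change, MB452 minus control, and each row is a class of the 36 genes (coloured) or another list (grey), with 1 point per gene and a thick bar at the median. The thin line is the median of all genes and the shaded band spans their 5th to 95th percentiles, -0.22 to 0.15; the alpha tubulins have a median of -0.25 and the microtubule-associated proteins one of -0.0026.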

How the data were processed

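The authors scanned each slide with a high and a low photomultiplier voltage, applied loess normalisation in limma (version not given in the sources used here) without background correction, and deposited 8 columns of log2 ratios, read as Cy5 over Cy3, for 44290 features. The log base and the direction of the ratio are not stated for the deposited table; base 2 was assumed, and the direction, which sets the sign of every fold change, follows the dyes in the methods and limma's red over green convention. No intensities were used, so the number of arrays limits the precision. Gene names came from the platform annotation: 29033 features had 1 symbol, 97 had several and 15160 had none.

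Each column was centred on its median. A slide's value was the mean of its scans, or the low scan on all slides where a feature held the repeated saturated value in any high scan, and features with it in a low scan were left out. A gene's value was the mean over its features. The fit used lmFit and eBayes in limma 3.58.1 (R 4.3.3), MB452 minus control over 4 slides, with Benjamini-Hochberg adjustment over 17910 genes or 41731 features. The script was tested on simulated data. The pools came from wells of the same experiment, so p-values measure the spread between these pools alone.

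All 36 members were to be named, with the called genes of the other lists, PCNA, MKI67 and TTC5. TUBG2 was added later. The members and lists, though drawn from textbook knowledge, were chosen with earlier results of these data known. Alternatives covered the scan, the scaling, the rule for features, the threshold, the slide as a random block, the pool letter as a block and each pool left out.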

Additional observations from a re-analysis of the deposited data

How the results depend on the processing

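None of the 36 genes had an adjusted p under 0.05 in limma in any setting that kept all 4 pools, and 2 pools a group limit every call. The count of 8 lower genes (1.02% of all genes) was 5 in the high scan alone, with 30 genes measured (1.01% of all genes). It was 5 with slides as random blocks (1.38% of all genes), where TUBB6, CCT5 and STMN1 were lost. With no fold minimum it was 14 (3.67% of all genes), and with a fold over 1.5 it was 0 (0.0279% of all genes). Judged by both MB452 pools lying beyond both control pools, 18 were lower and 3 higher, against 19.5% and 17.9% of all genes. With 1 pool left out, the lone pool of a group is assumed to vary like the other group, so no call or count of genes is given for these fits. The count of 8 stood with the most variable feature of each gene (1.36% of all genes), but 5 of the genes were shared. TUBA1C, TUBB4B and CCT5 were lost and TUBA3D, TUBA4A and TUBB3 gained. STMN1 (-0.42) did not pass with a fold over 1.5 or with slides as random blocks. The median of the alpha and beta tubulins was -0.30 with the most variable feature, and it moved by less than the pool spread in the other settings. The median of CCT was -0.066 over both scans with saturated values, -0.069 in the high scan, -0.055 with bright features centred on their own median, and -0.047 to -0.16 with 1 pool left out. That of the cofactors was 0.037 in the high scan, -0.11 with the most variable feature, and -0.096 to 0.0010 with 1 pool left out.

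Genes whose sign turned had log2 fold changes between -0.13 and 0.10 in the main fit, but some were larger elsewhere, such as TBCE at 0.24 in the high scan. TUBB1 had -0.0037 in the high scan, with or without the low scan for saturated features, and -0.037 with the most variable feature. PFDN1 had 0.0073 in both of these high scan settings, and CCT8 had 0.042 in the high scan, 0.0070 with slides as random blocks, 0.018 when the most variable feature stood for the gene, and 0.012 with bright features centred, where CCT6A had 0.021. In the low scan TBCE had -0.035, PFDN2 0.041 and PFDN4 -0.052. With 1 pool left out, TUBB1 ranged from -0.078 to 0.11, CCT6A from -0.090 to 0.019, CCT8 from -0.049 to 0.016, PFDN1 from -0.14 to 0.094, PFDN2 from -0.035 to 0.0028, PFDN4 from -0.051 to 0.15, TUBG1 from -0.0025 to 0.098, TBCC from -0.096 to 0.0082 and CCT4 from -0.27 to 0.0074. The causes were not tested.

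With the pool letter as a replicate block the count stayed at 8 (1.57% of all genes), with the same 8 genes. Neither the labels nor the methods say whether the letters pair the samples. Deviations of same-lettered pools correlated at -0.034 over features, which cannot settle it.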
